A study of Mus musculus with 6 samples.

Results

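MHC class I genes and the genes for loading class I molecules with peptide were followed in CD4+CD8+ double positive (DP) thymocytes with and without Paxbp1. The set held 10 genes of the 22322 in the deposited table, picked by gene symbol with earlier results of these data known. They were H2-K1, H2-D1 and H2-T10 (heavy chains), B2m (light chain), Tap1, Tap2 and Tapbp (peptide transport and loading), Psmb8 and Psmb9 (immunoproteasome subunits) and Nlrc5 (class I transactivator). All 10 passed the filter on low counts. DP thymocytes were sorted, and their mRNA was sequenced, from control mice (Paxbp1fl/fl littermates without Cre, named WT in the labels) in 3 libraries and from Paxbp1 cKO mice (Paxbp1fl/fl Lckcre) in 3 libraries. Both groups carried the floxed allele, and the mice were 4 to 7 weeks old, of mixed sex and on the C57BL/6 background. Cre came from a transgene under the Lck proximal promoter, which acts in thymocytes from before the DP stage. Control mice had no Cre, so effects of Cre itself and of Paxbp1 loss cannot be told apart. No label says whether each library came from a different mouse, so p-values measure the spread between libraries, which may be technical.

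An MHC class I molecule is a heavy chain paired with beta-2 microglobulin and a short peptide. The proteasome cuts cytosolic proteins, the transporter made of Tap1 and Tap2 moves peptides into the endoplasmic reticulum, and tapasin (Tapbp) with the chaperones calreticulin and Pdia3 helps load them. Thymic positive selection of CD8 T cells needs peptide on class I molecules of the cortical epithelium, while DP thymocytes themselves carry little class I on their surface compared with mature T cells. Interferons raise most of these genes through factors such as Irf1, and Nlrc5 acts at class I promoters together with the factors Rfx5, Rfxap and Rfxank, with CREB or ATF1 and with NF-Y.

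Library totals ran from 18963775 to 26252248 counts. On the scale of CPM, counts scaled to a fixed library total, a single count made 0.0381 to 0.0527 CPM. Counts of Paxbp1 itself were 774, 318 and 400 in the control libraries and 851, 905 and 1075 in the libraries labelled cKO (log2 fold change 0.92, SE 0.33, edgeR adjusted p = 0.0977). Since the floxed exon is 1 of many in this gene, a count over the whole gene does not check the labels, and the libraries are called by their labels throughout. All 10 DP markers examined (among them Cd4, Cd8a and Rag1) were detected, with a summed level of 10298 to 12201 CPM in the control libraries and 7679 to 9091 CPM in the libraries labelled cKO, and 3 of the 10 were lower in the latter by the test (Rag1, Cd3e and Cd8b1). All 10 had a negative log2 fold change (median -0.34), 5 of them at an unadjusted p below 0.05. The 14 macrophage markers listed summed to 18.6 to 45.6 CPM in the control libraries and to 62.6 to 78.0 CPM in the libraries labelled cKO. Of the 10 tested, 5 were higher by the test (C1qb, C1qc, Adgre1, Cd5l and Cd68) and 1 was lower at an unadjusted p below 0.05. Adgre1, Cd5l, Fcgr1 and Timd4 were at 0 counts in every control library, and Mertk was at 0 throughout. Markers of dendritic cells and class II presentation summed to 26.2 to 48.0 CPM and to 75.1 to 130 CPM in the same order, with 3 of 6 tested markers higher (H2-Aa, H2-Eb1 and Cd74) and Clec9a at 0 throughout. Of 7 B cell markers listed, only 3 were tested, and Pax5 was at 0 counts in every control library. The 7 summed to 947 to 1298 CPM and to 871 to 910 CPM, with 1 of the 3 tested lower (Cd79b). By edgeR, Blk changed by 2.04 on the log2 scale, with adjusted p = 0.146. The sum does not give the share of B cells in a library, which was not tested. Thymic epithelial markers summed to 17.2 to 19.5 CPM and to 17.3 to 24.8 CPM. Of the 4 tested, 0 were called by edgeR or DESeq2 and 1 had an unadjusted p below 0.05. Of 7 tested markers of late DP and mature thymocytes, Cd69 alone passed the test (log2 fold change 1.47, adjusted p = 0.0344), while 5 of the 7 had a negative log2 fold change (median of the 7 -0.34) and 2 of those an unadjusted p below 0.05. These counts stand beside 4.47% of all genes called higher and 5.89% called lower. Of all 11488 genes tested, 3204 had an unadjusted p below 0.05 and 5770 a negative log2 fold change.

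The promoters of these genes are shown first, because the class I genes are known for a shared promoter module. The windows ran from 250 bases before to 50 bases after the annotated start of transcription (RefSeq, GRCm38.p6), and 7 of the 10 genes had an entry. H2-T10, Tap2 and Nlrc5 had none. The motifs searched on both strands were the CCAAT box bound by NF-Y, the core TGACG of the X2 box bound by CREB and ATF1, GAAA followed after any 2 bases by GAAA, from the interferon-stimulated response element (ISRE), TTCNNNGAA bound by STAT dimers (GAS), and GGGA followed after any 3 bases by CCC, bound by NF-kappaB (kappaB). The stretches below end at the base before the start of transcription, and capitals mark motif matches on either strand. H2-K1 is read from chr17:34000348-34000597 on the minus strand, H2-D1 from chr17:35262844-35263093 on the plus strand, and B2m from chr2:122147437-122147686 on the plus strand. Tap1 and Psmb9 are transcribed away from each other, and chr17:34187331-34187555 (plus strand) holds all 225 bases between their starts.
H2-K1: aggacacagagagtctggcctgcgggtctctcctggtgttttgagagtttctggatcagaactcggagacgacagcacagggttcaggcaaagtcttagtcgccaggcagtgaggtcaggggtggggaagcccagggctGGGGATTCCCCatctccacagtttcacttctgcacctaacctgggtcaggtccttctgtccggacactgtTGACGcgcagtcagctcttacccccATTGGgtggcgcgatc
H2-D1: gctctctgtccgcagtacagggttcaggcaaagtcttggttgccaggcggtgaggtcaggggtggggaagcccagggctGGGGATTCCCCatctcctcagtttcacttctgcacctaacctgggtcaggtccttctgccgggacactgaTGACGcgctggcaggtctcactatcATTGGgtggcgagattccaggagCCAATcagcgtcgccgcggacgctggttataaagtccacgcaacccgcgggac
B2m: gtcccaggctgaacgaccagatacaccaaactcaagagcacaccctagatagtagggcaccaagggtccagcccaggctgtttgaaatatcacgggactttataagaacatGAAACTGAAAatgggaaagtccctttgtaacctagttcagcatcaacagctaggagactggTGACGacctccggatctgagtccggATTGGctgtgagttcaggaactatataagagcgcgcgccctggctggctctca
Tap1 and Psmb9: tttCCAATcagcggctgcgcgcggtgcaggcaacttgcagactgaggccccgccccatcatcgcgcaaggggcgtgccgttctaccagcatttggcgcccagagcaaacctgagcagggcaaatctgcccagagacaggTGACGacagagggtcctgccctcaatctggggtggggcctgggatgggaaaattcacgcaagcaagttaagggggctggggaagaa

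The H2-K1, H2-D1 and B2m promoters shared 1 arrangement, TGACG followed after 20 bases by ATTGG, the CCAAT box read on the other strand. This spacing was noticed in the sequences and then counted. It was found in 3 of the 7 promoters and in 31 of 32851 RefSeq mouse promoters of the same length (0.0944%), and H2-M3 was the only other H2 gene that held it. In H2-K1 the pair began 41 bases before the start, in H2-D1 101 bases and in B2m 78 bases. H2-K1 had 2 RefSeq entries, and the window nearest the outermost GENCODE start was used. A further CCAAT box began at 9 in H2-K1, after the start, and at -53 in H2-D1, before it. Distances from the start, and what the printed H2-K1 stretch holds, thus depend on the start chosen. When the H2-K1 and H2-D1 windows were laid side by side at this module without gaps, 176 of 240 bases were identical (73.3%). Both carried a kappaB match 69 bases before their TGACG, at -110 in H2-K1 and at -170 in H2-D1, counted from the start of transcription. A kappaB match was found in 5.55% of all promoters. B2m had the ISRE core, which 3.44% of all promoters held, and Psmb8 had a GAS match, which 8.3% held. Tap1 and Psmb9 share their TGACG and a CCAAT box in the stretch between them, 131 bases apart and on the same strand, so the 2 genes are not separate cases. In all, 5 of the 7 windows held both CCAAT and TGACG, against 7.73% of all promoters. A match describes the letters in the window and not the binding of a factor, and no factor binding was measured.

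**Figure D1:**
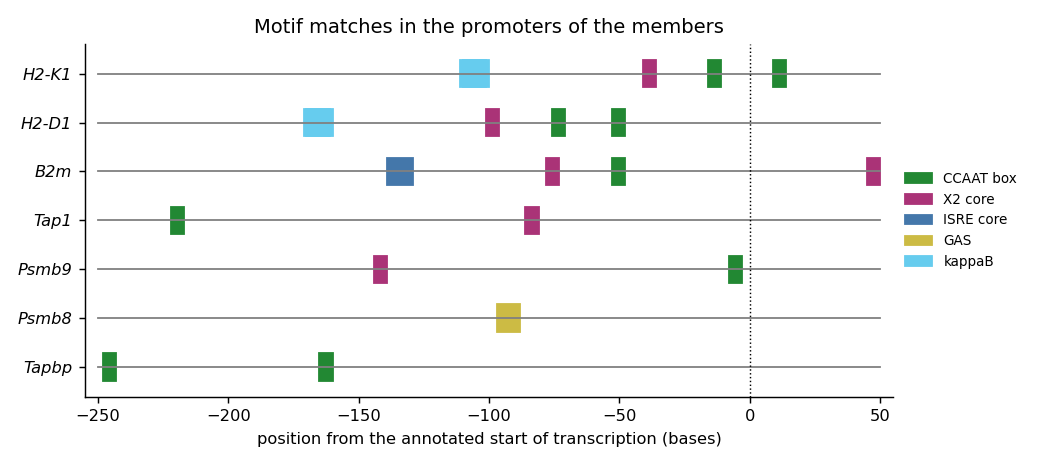
Motif matches in the promoter windows of the 7 genes with a RefSeq entry, by position from the annotated start of transcription in bases (horizontal axis) and by gene (vertical axis), with 1 colour per motif. The X2 core and the CCAAT box lie side by side in H2-K1, H2-D1 and B2m, and are 131 bases apart in Tap1 and Psmb9.

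Gene levels were compared as CPM after TMM normalization, and the groups by the quasi-likelihood test of edgeR with Benjamini-Hochberg adjustment over 11488 genes. Of the 10 genes, 1 passed an adjusted p of 0.05 (H2-T10, higher in the libraries labelled cKO), and 4 with higher and 2 with lower values had an unadjusted p below 0.05. Over all genes tested, 10.4% passed (4.47% higher and 5.89% lower), so the count of class I genes that passed was at the background. An unadjusted p below 0.05 was seen for 6 of the 10 genes and for 3204 of the 11488 genes tested. Their median log2 fold change was 0.16, beside -0.0017 over all genes tested, with 6 positive and 4 negative values. Non-overlapping groups were seen for H2-T10, B2m and Tap2, 3 of the 10 genes, and for 33% of all genes tested. H2-T10 also passed a 2-fold change, by a margin that was lost with no filter and without control 1, cKO 1 or cKO 2 (log2 fold changes 0.91 to 0.996). Such a change upward or downward was seen for 1.53% and 1.23% of all genes. In bulk libraries, fewer cells of a type and less RNA per cell cannot be told apart.

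**Figure D2:**
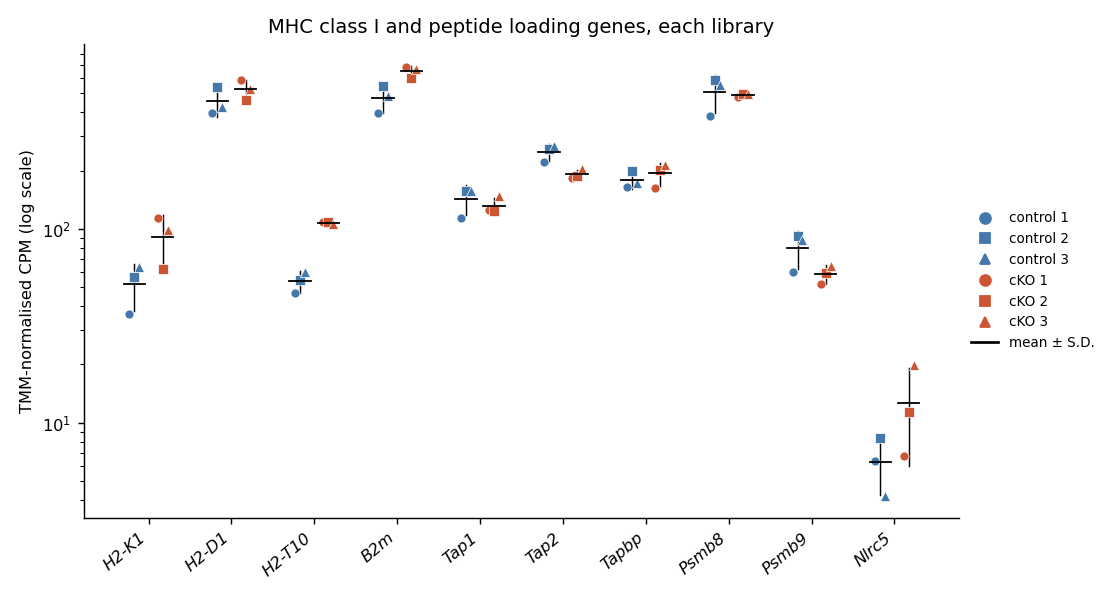
Level of each gene in TMM-normalised CPM (vertical axis, log scale) in every library, with control libraries in blue, libraries labelled cKO in orange, symbols by replicate number, and lines for the mean ± S.D. of 3 libraries. H2-T10 at 106 to 109 CPM in the libraries labelled cKO stands above all control libraries, B2m lies above and Tap2 below their control libraries, and control 1 is the lowest control library for 9 of the 10 genes.

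Among the heavy chains, H2-T10 was 2-fold higher in the libraries labelled cKO, while H2-K1 and H2-D1 did not pass the test. H2-T10 (ENSMUSG00000079491) is a nonclassical class I gene, classed as a polymorphic pseudogene in GENCODE M21 (GRCm38, chr17:36115876-36121465, minus strand). Its level was 46.7, 54.5 and 60.3 CPM in the control libraries and 109, 108 and 106 CPM in the libraries labelled cKO. The latter were nearly equal to each other and clear of every control library (mean 53.8 ± 6.82 against 108 ± 1.26 CPM, n = 3 each). The log2 fold change was 1.002 (SE 0.13, edgeR adjusted p = 0.00408). Of the 50-base sequences in the H2-T10 transcripts, 50.4% also occur in transcripts of other genes, 31.7% in H2-T22 and 24.9% in BC023719, so reads could be split between them. The annotated gene Gm7030 covers all 5590 bases of H2-T10 on the same strand. H2-T22 had 83.8, 90.5 and 85.2 CPM in the control libraries and 108, 103 and 122 CPM in the libraries labelled cKO, again without overlap, but did not pass the test (log2 fold change 0.36, adjusted p = 0.0774). With the counts of H2-T10 and H2-T22 added together, the log2 fold change was 0.64 (SE 0.11, adjusted p = 0.00832).

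H2-K1 (ENSMUSG00000061232), a classical class I gene presenting peptide to CD8 T cells, lies at chr17:33996017-34000347 (minus strand). It was at 36.3, 56.5 and 63.4 CPM in the control libraries and at 113, 61.9 and 98.3 CPM in the libraries labelled cKO. The groups overlapped, since cKO 2 lay below control 3. The means were 52.1 ± 14.1 and 91.2 ± 26.5 CPM (log2 fold change 0.81, SE 0.25, adjusted p = 0.0629). H2-K1 was called by DESeq2 (adjusted p = 0.0081), by limma on log2 FPKM (0.0380) and in edgeR with no filter (0.0306) or a mean of at least 5 CPM (0.0455). Leaving out 1 library gave log2 fold changes from 0.60 (without control 1) to 1.02 and edgeR adjusted p from 0.0354 to 0.213, with a call without cKO 2 and in no other of these 6 fits. H2-D1 (ENSMUSG00000073411), the other classical heavy chain of this strain, lies at chr17:35262730-35267499 (plus strand). It was at 397, 542 and 425 CPM in the control libraries and at 586, 463 and 528 CPM in the libraries labelled cKO. Control 2 stood above 2 of the libraries labelled cKO. The means were 454 ± 76.7 and 526 ± 61.9 CPM (log2 fold change 0.21, SE 0.14, adjusted p = 0.376). H2-K1 and H2-D1 share 4.08% of the H2-K1 50-base sequences, and 9.63% of the H2-K1 sequences occur in any other gene. For H2-D1 that share was 12.8%.

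B2m (ENSMUSG00000060802), the light chain common to these molecules, lies at chr2:122147686-122153083 (plus strand). Its level was 394, 546 and 483 CPM in the control libraries and 687, 599 and 666 CPM in the libraries labelled cKO. All of the latter were above all control libraries (474 ± 76.2 against 651 ± 46.0 CPM). The log2 fold change of 0.46 (SE 0.13) just missed the threshold (edgeR adjusted p = 0.0556), and DESeq2 gave an adjusted p of 0.0116. None of the 50-base sequences of B2m occur in another gene, although Patl2 spans it on the other strand. Nlrc5 (ENSMUSG00000074151, chr8:94434356-94527272, plus strand) was the least abundant of the 10 genes. It had 123, 162 and 108 counts, or 6.38, 8.33 and 4.19 CPM, in the control libraries. In the libraries labelled cKO it had 147, 219 and 429 counts, or 6.71, 11.4 and 19.8 CPM. The first of these lay within the control range and the other two above it (6.30 ± 2.07 against 12.6 ± 6.63 CPM). The log2 fold change was 1.01 with the widest error of the set (SE 0.40, adjusted p = 0.133), and it was 0.52 without cKO 3.

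Of the 5 transporter, loading and proteasome genes, 0 passed the test by edgeR and 1 by DESeq2 (Tap2), 2 had an unadjusted p below 0.05, and 4 had a negative log2 fold change. Tap2 (ENSMUSG00000024339), at chr17:34203527-34216321 (plus strand), was at 221, 257 and 268 CPM in the control libraries and at 182, 188 and 203 CPM in the libraries labelled cKO. Every library labelled cKO lay below every control library (249 ± 24.6 against 191 ± 10.5 CPM). The log2 fold change was -0.38 (SE 0.12, edgeR adjusted p = 0.0634), and the gene was called by DESeq2 (adjusted p = 0.0321). Tap1, its partner (ENSMUSG00000037321, chr17:34187553-34197225, plus strand), was at 114, 157 and 157 CPM in the control libraries and at 125, 123 and 147 CPM in the libraries labelled cKO. The latter fell inside the control range (143 ± 25.1 against 132 ± 13.3 CPM, log2 fold change -0.11, SE 0.15, adjusted p = 0.678). Tapbp, which bridges the transporter and the empty heavy chain (ENSMUSG00000024308, chr17:33915899-33929292, plus strand), was at 164, 199 and 173 CPM in the control libraries. It was at 163, 202 and 215 CPM in the libraries labelled cKO, the first just below and the others above all control libraries (log2 fold change 0.11, SE 0.14, adjusted p = 0.635).

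Psmb9 (ENSMUSG00000096727) encodes an inducible catalytic subunit that replaces Psmb6 in the immunoproteasome, and lies beside Tap1 (chr17:34181987-34187764, minus strand), with 212 bases of overlap between both genes on opposite strands in GENCODE, whose outermost starts lie further upstream than the RefSeq starts used above. It was at 59.7, 92.2 and 87.6 CPM in the control libraries and at 51.9, 59.6 and 64.7 CPM in the libraries labelled cKO. Control 1 lay among the libraries labelled cKO and the other two control libraries above them (79.8 ± 17.6 against 58.7 ± 6.45 CPM). The log2 fold change was -0.44 (SE 0.18, edgeR adjusted p = 0.134), and -0.62 without control 1 (adjusted p = 0.0121). Psmb8, which replaces Psmb5 (ENSMUSG00000024338, chr17:34197721-34201454, plus strand), was at 381, 587 and 556 CPM in the control libraries and at 478, 499 and 497 CPM in the libraries labelled cKO. The libraries labelled cKO lay close together inside the wide control range (508 ± 111 against 491 ± 11.7 CPM, log2 fold change -0.05, SE 0.15, adjusted p = 0.874). Of the 50-base sequences of Tapbp, 23.2% occur in other genes, most of them in the overlapping Gm19412, and the shares were 11.9% for Psmb8, 11.6% for Tap2, 4.19% for Psmb9 and 3.33% for Tap1, so that their counts could include reads of neighbours.

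Control 1 was the lowest control library for 9 of the 10 genes, all but Nlrc5, and the lowest of all 6 libraries for 6 of them. Over all tested genes, control 1 was the lowest control library for 40.7%. Without control 1, 4 of the 10 genes passed the test. H2-T10 and B2m were higher (B2m adjusted p = 0.0466), and Tap2 and Psmb9 were lower (Tap2 log2 fold change -0.46, adjusted p = 0.0116). Without control 1, the share called over all genes was 17.1% (8.42% higher and 8.68% lower). With the 3 control libraries, DESeq2 also called 4 genes, H2-K1, H2-T10 and B2m higher and Tap2 lower, while it called 16.7% of 11477 genes (8.22% higher and 8.44% lower). In other fits, the number called of the 10 genes was 2 with total counts (all genes 10.3%), 2 by limma-voom (all genes 11.5%), 4 by limma on log2 FPKM (all genes 10.8%), 3 with no filter on low counts (all genes 8.85%), 3 with a mean of at least 5 CPM (all genes 14.4%) and 2 without cKO 2 (all genes 6.31%). It stayed at 1 (H2-T10) with RLE factors, with the replicate number as a block, and without control 2, control 3, cKO 1 or cKO 3. The 10 genes' mean z-scored log2 CPM was -1.07 in control 1, 0.460 in control 2 and 0.0092 in control 3, and -0.0078, 0.00056 and 0.607 in cKO 1, 2 and 3. Over these 6 libraries, the genes outside the pathway whose log2 CPM followed that mean most closely were Lage3 (Pearson's r 0.991), 4933434E20Rik (0.990), Zdhhc6 (0.987), Cdk1 (0.984) and Tada3 (0.978), out of 9103 genes compared. They are the 5 highest of many values over 6 shared libraries and are given as a description.

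Levels between genes were set side by side as FPKM, which the authors had scaled to length. In the control libraries the order was B2m (547 ± 82.1 FPKM), Psmb8 (423 ± 87.5), H2-D1 (222 ± 35.9), Tap2 (73.2 ± 5.96), Psmb9 (70.1 ± 14.8), Tapbp (67.0 ± 6.38), Tap1 (48.8 ± 7.92), H2-K1 (36.2 ± 8.04), H2-T10 (31.4 ± 3.52) and Nlrc5 (0.907 ± 0.267). Between neighbours in this order, the ranges over libraries overlapped for B2m and Psmb8, Tap2 and Psmb9, and Psmb9 and Tapbp. They also overlapped for Tap1 and H2-K1 and for H2-K1 and H2-T10. Beyond neighbours, the ranges of Tap2 and Tapbp overlapped, as did those of Psmb9 and Tap1. Within each control library, B2m was above Psmb8, Tap1 above H2-K1 and H2-K1 above H2-T10, the last by only 27.86 against 27.76 FPKM in control 1. The order of Psmb9 against Tap2 and against Tapbp changed between control libraries. H2-D1 mRNA was thus several times as abundant as that of H2-K1. In the libraries labelled cKO, H2-K1 was at 69.4 ± 22.1 FPKM, H2-T10 at 63.9 ± 1.14 FPKM and Tap2 at 55.9 ± 2.74 FPKM. Light chain mRNA exceeded each heavy chain in both groups, with B2m at 761 ± 50.8 FPKM in the libraries labelled cKO.

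Because heavy and light chains form 1 complex, and each inducible proteasome subunit takes the place of a constitutive one, 5 ratios of FPKM were compared by exact two-sided permutation tests, in which 3 libraries against 3 cannot give a p under 0.1. The H2-D1 to B2m ratio was 0.430, 0.421 and 0.371 in the control libraries and 0.370, 0.328 and 0.341 in the libraries labelled cKO. These groups touched but did not overlap (mean 0.407 ± 0.0318 against 0.346 ± 0.0217, exact p = 0.1, adjusted over the 5 ratios 0.25). The H2-K1 to B2m ratio was 0.0602, 0.0587 and 0.0797 against 0.113, 0.0660 and 0.0919. Here the groups overlapped (exact p = 0.2, adjusted 0.333), and the difference had the opposite sign from that of H2-D1. The Psmb9 to Psmb6 ratio was 0.128, 0.164 and 0.168 in the control libraries and 0.104, 0.124 and 0.114 in the libraries labelled cKO. All of the latter were below all control libraries (0.153 ± 0.0218 against 0.114 ± 0.0103, log2 difference -0.42, exact p = 0.1, adjusted 0.25). The Psmb8 to Psmb5 ratio (2.13 ± 0.157 against 1.97 ± 0.177) and the Psmb10 to Psmb7 ratio (0.253 ± 0.0254 against 0.268 ± 0.0205) had overlapping groups (exact p = 0.4 for each). In every library Psmb8 exceeded Psmb5, whereas Psmb9 and Psmb10 stayed below their constitutive counterparts.

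**Figure D3:**
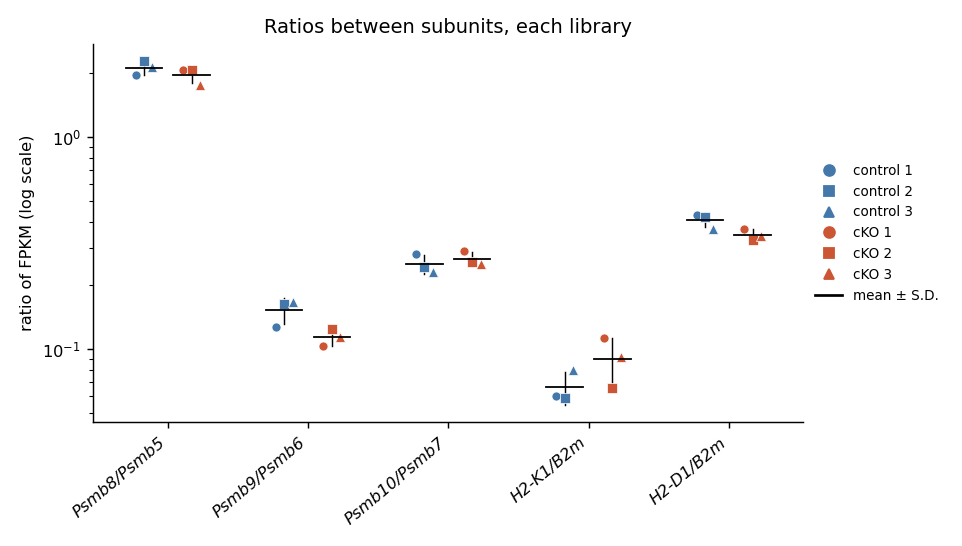
Ratio of FPKM (vertical axis, log scale) for 3 pairs of inducible and constitutive proteasome subunits and for H2-K1 and H2-D1 over B2m, in every library, with lines for the mean ± S.D. of 3 libraries. Psmb9/Psmb6 and H2-D1/B2m are lower in each library labelled cKO than in any control library, and the other 3 ratios overlap between the groups.

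Of 62 other genes of the class I pathway, 57 were tested and 11 passed (7 higher and 4 lower in the libraries labelled cKO, median log2 fold change 0.10), against the same background of 10.4%. Among other heavy chains and class I-like genes, 14 of 18 were tested, 0 were higher and 2 lower by edgeR, and 3 had an unadjusted p below 0.05 in the upward direction. DESeq2 called 1 of them higher (H2-T22) and the same 2 lower. The 2 that fell are class I-like molecules that present to innate-like T cells. Cd1d1, which presents lipids to invariant NKT cells selected on DP thymocytes, was at 125, 147 and 136 CPM in the control libraries and at 70.8, 76.4 and 61.2 CPM in the libraries labelled cKO (log2 fold change -0.97, SE 0.13, adjusted p = 0.00408). Mr1, which presents vitamin B metabolites to MAIT cells, was at 163, 195 and 166 CPM against 102, 127 and 98.1 CPM (log2 fold change -0.68, SE 0.14, adjusted p = 0.0148). For both genes the groups did not overlap. H2-T23, the nonclassical gene for Qa-1, had a log2 fold change of -0.27 (adjusted p = 0.247) and H2-Q2 of -0.05 (adjusted p = 0.851). H2-M5 was at 0 counts in all libraries.

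Among 19 genes of peptide supply and loading, all tested, 4 were higher and 0 lower by edgeR, with 1 lower at an unadjusted p below 0.05 and 5 higher and 0 lower by DESeq2. Over all genes, 4.47% were higher and 5.89% lower by edgeR, and 8.22% were higher by DESeq2. Calr, the calreticulin of the loading complex, was at 184, 206 and 220 CPM in the control libraries and at 299, 239 and 317 CPM in the libraries labelled cKO (log2 fold change 0.49, SE 0.13, adjusted p = 0.0466). Erap1, the aminopeptidase that trims peptides in the endoplasmic reticulum, was at 68.1, 98.6 and 95.7 CPM against 130, 126 and 168 CPM (log2 fold change 0.69, SE 0.17, adjusted p = 0.0312). Both genes had groups that did not overlap. Lap3, a cytosolic leucine aminopeptidase, was at 9.18, 14.3 and 17.3 CPM against 30.9, 25.8 and 31.3 CPM (log2 fold change 1.11, SE 0.24, adjusted p = 0.0188). Hspa5, the general chaperone BiP of the endoplasmic reticulum and a target of the unfolded protein response, was at 914, 598 and 802 CPM against 1401, 1077 and 1512 CPM (log2 fold change 0.79, SE 0.17, adjusted p = 0.0205). These too were apart in every library. Of the other loading chaperones, Pdia3 (log2 fold change 0.21, adjusted p = 0.287) and Canx (0.11, adjusted p = 0.651) did not pass, nor did Psmb6 (0.06, adjusted p = 0.762).

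Among 25 regulators of class I genes, 24 were tested, 3 were higher and 2 lower, against 4.47% and 5.89% of all genes, and Ciita fell under the filter. The 2 that fell are both partners of Rfx5 in the RFX complex at class I and class II promoters. Rfxap was at 27.0, 75.5 and 97.6 CPM in the control libraries and at 11.6, 15.5 and 11.1 CPM in the libraries labelled cKO. Control 1 was well below the other control libraries and still above all libraries labelled cKO (log2 fold change -2.39, SE 0.39, adjusted p = 0.00786). Rfxank was at 66.9, 55.2 and 57.0 CPM against 42.6, 40.1 and 37.8 CPM (log2 fold change -0.57, SE 0.14, adjusted p = 0.0309). Rfx5 itself, named here to complete the complex, had a log2 fold change of -0.13 (adjusted p = 0.623). Irf1, the interferon-induced activator of class I genes, was at 254, 124 and 147 CPM in the control libraries and at 410, 246 and 420 CPM in the libraries labelled cKO. It passed the test (log2 fold change 1.04, SE 0.27, adjusted p = 0.0389) although control 1 lay above cKO 2, and DESeq2 gave an adjusted p of 0.0522. Rela, an NF-kappaB subunit, was at 112, 99.6 and 95.3 CPM against 138, 133 and 151 CPM (log2 fold change 0.46, SE 0.12, adjusted p = 0.0384). Ifngr2, the signalling chain of the interferon-gamma receptor, was at 70.3, 67.8 and 65.3 CPM against 123, 94.9 and 122 CPM (log2 fold change 0.74, SE 0.14, adjusted p = 0.0101). The ligand-binding chain Ifngr1 (0.20, adjusted p = 0.239), Jak1 (-0.23, adjusted p = 0.171) and Creb1 (0.14, adjusted p = 0.479) did not pass.

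Of 15 tested interferon-stimulated genes outside the pathway, 2 were higher in the libraries labelled cKO by edgeR (Cxcl10 and Bst2), against 4.47% of all genes. DESeq2 called 4 of 16 higher (8.22% of all genes higher) and limma-voom 5 of 15 (11.5% of all genes in either direction). By edgeR 8 of the 15 had an unadjusted p below 0.05, all higher, and 13 had a positive log2 fold change. Their median log2 fold change was 1.05, and their summed level was 742 to 1017 CPM in the control libraries and 962 to 1126 CPM in the libraries labelled cKO. Of all 11488 genes tested, 3204 had an unadjusted p below 0.05 in either direction and 5718 a positive log2 fold change. The macrophage and class II markers given above differed between the same groups, and macrophages and dendritic cells express class I and interferon-responsive genes too. The part of these cells in the values of H2-T10, H2-K1, B2m, Irf1 and Ifngr2 was not tested. Leaving out cKO 3 left 1 of the 11 calls in the wider pathway (Cd1d1), and leaving out control 2 or cKO 1 left 3 each. Without cKO 3 the log2 fold changes kept their direction (Rfxap -2.31, Lap3 1.06, Irf1 0.91, Ifngr2 0.68). Over all genes, those past a 2-fold change and an adjusted p of 0.05 went from 176 to 28 higher and from 141 to 45 lower. Their number was 118 higher and 92 lower without control 2, and 96 higher and 126 lower without cKO 1. These counts carry a fold threshold that the 11 pathway calls do not. H2-T10 passed the test in each of the 6 fits that left out 1 library, with log2 fold changes between 0.91 and 1.09.

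**Figure D4:**
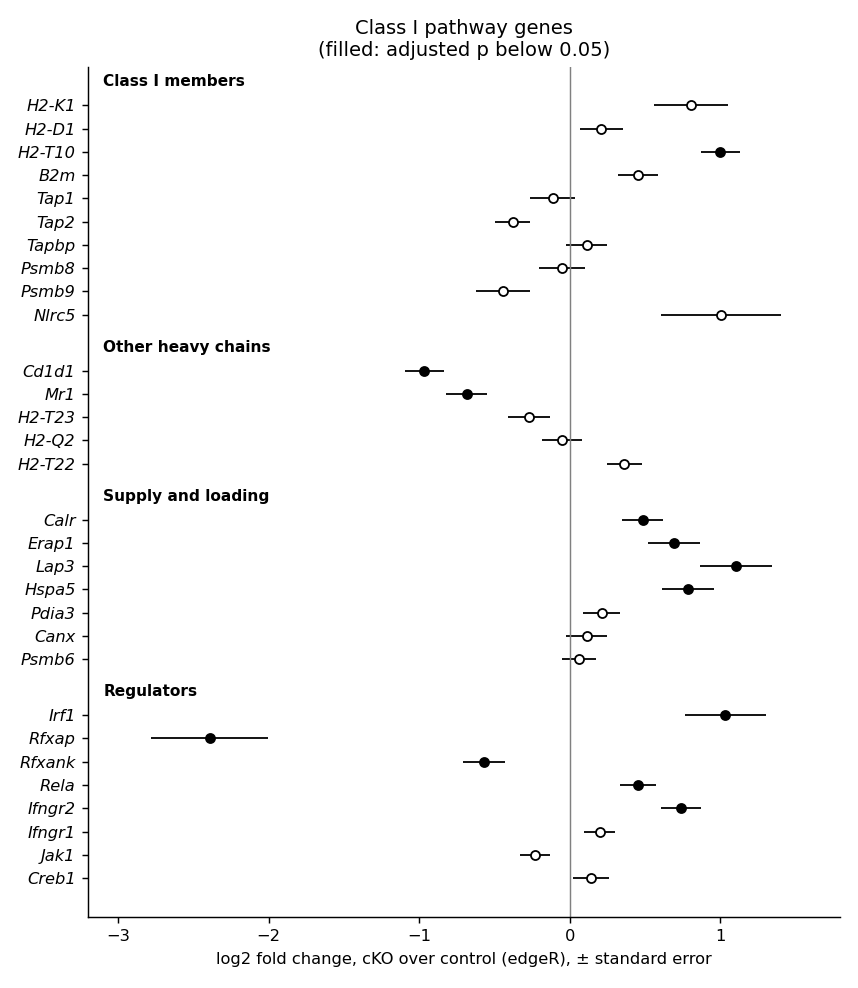
Log2 fold change of the libraries labelled cKO over control (horizontal axis, edgeR), with bars for the standard error, for the 10 class I genes and 20 other named genes of the pathway (vertical axis). Filled points passed an adjusted p of 0.05: H2-T10 among the 10 genes, and 11 of the others, with Rfxap the lowest at -2.39 and Lap3 the highest at 1.11.

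**Figure D5:**
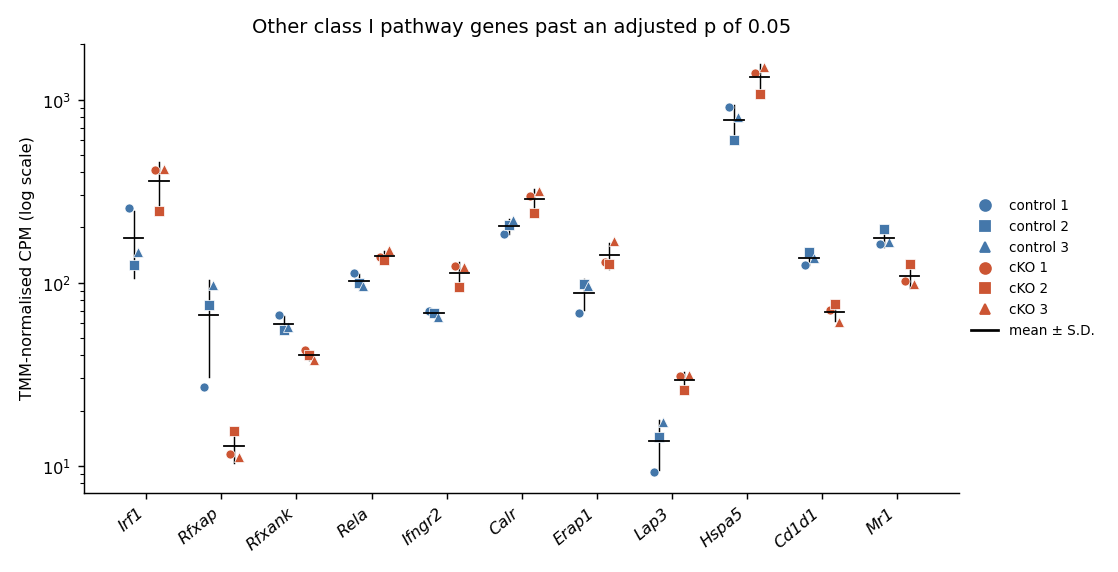
Level of the 11 other pathway genes past the test in TMM-normalised CPM (vertical axis, log scale) in every library, with lines for the mean ± S.D. of 3 libraries. Irf1 is the 1 gene whose groups overlap, at 254 CPM in control 1 and 246 CPM in cKO 2, and Rfxap has the widest control spread on the log axis, from 27.0 to 97.6 CPM.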

How the data were processed

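RNA was extracted from sorted DP thymocytes, cDNA was amplified, and 6 libraries (3 control and 3 cKO) were sequenced (Illumina HiSeq2500). Library kits named in the paper and in the sample labels differ. The submitters' processing notes name fastp 0.18.0, Bowtie2 2.2.8, HISAT2, StringTie and RSEM without their roles. Strand setting, genome build and annotation were not given in the sources used here. What the authors deposited is a table of 22322 genes with raw read counts per gene and library. The deposited FPKM values are the authors' own and account for library size and gene length. This table also holds the authors' group means, fold changes, p-values and FDR, none of which were used.

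The analysis of counts used edgeR 4.0.16 in R 4.3.3 (filterByExpr, minimum count 10, minimum total 15, which kept 11488 of 15349 genes with a count, TMM, quasi-likelihood test, genotype as the only term, Benjamini-Hochberg adjustment). Intergroup overlap and means ± S.D. used TMM-normalised CPM. Replicates were not duplicates (chi-square per degree of freedom 19.8 to 68.3 between any pair within a group). Gene positions and the 50-base sequences shared between transcripts came from GENCODE M21 (GRCm38), and promoters from RefSeq. The scripts were tested on simulated counts. The named genes are the 10 class I genes, all pathway genes past an adjusted p of 0.05, the 3 others of each list with the highest mean, and the 5 genes most like the 10 with a mean of at least 5 CPM. Rfx5 and the marker genes named were chosen outside this rule after their values were seen, and so was the promoter spacing. Some listed genes are counted but not reported by name here. The members, lists and tests were chosen with earlier results of these data known. The alternatives were DESeq2 1.42.0, RLE factors, total counts, no filter, a mean of at least 5 CPM, limma-voom (limma 3.58.1), limma on log2(FPKM + 1), the replicate number as a block, ratios of counts, and leaving out each library in turn. Adding H2-T10 and H2-T22 counts together was chosen after the data were seen.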

Additional observations from a re-analysis of the deposited data

How the results depend on the processing

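The count of class I genes past an adjusted p of 0.05 was 1 by edgeR, 1 with RLE factors, 2 with total counts alone, 3 with no filter, 3 with a mean of at least 5 CPM, 2 by limma-voom, 4 by limma on log2 FPKM and 4 by DESeq2, and lay between 1 and 4 when 1 library was left out. H2-T10 was called in all 15 alternatives, 1 of which was the sum of its counts with those of H2-T22. Among all genes past a 2-fold change and an adjusted p of 0.05, 176 were higher and 141 lower, with 93 lower by limma on log2 FPKM, and leaving out 1 library gave 28 to 270 higher and 45 to 184 lower. The 11 calls in the wider pathway became 1 to 14 when 1 library was left out, with the lowest count without cKO 3 and the highest without control 1. Over 30 named genes and 421 values, 358 kept their direction and their side of the threshold, 38 lost the call, 18 gained one and 7 changed sign. All 7 were of genes near 0. Psmb8 was at 0.016 by limma on log2 FPKM, and with 1 library left out Psmb8 ran from -0.22 to 0.065, H2-Q2 from -0.15 to 0.048, Canx from -0.015 to 0.23 and Psmb6 from -0.012 to 0.11. The 5 ratios kept their direction under all alternatives. Same-numbered libraries of the 2 groups did not deviate together over all genes (correlations of 0.0451, 0.0377 and -0.030). Whether they share a batch that acts on some genes was not tested. With the replicate block, 1 of the 10 genes and 11 of the wider pathway were called, and 197 genes were higher and 133 lower, while Rela moved to an adjusted p of 0.0501. With 3 libraries a group, permutation p-values of the ratios cannot pass 0.05, and Nlrc5, at 108 to 429 counts, had the least depth of the 10 genes.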
